A study of Mus musculus with 23 samples.

Results

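The ubiquitin-specific proteases (USPs) are the largest family of deubiquitinases, the enzymes that remove ubiquitin from proteins. Their transcripts were followed here in mouse skeletal muscle after denervation, and in denervated muscle labelled as knockout or knockdown of the transcription factors PAX4 and NRF1. The raw count table held 56 protein-coding genes whose name starts with Usp and a digit. Usp14, which works on the proteasome, and Usp18, which removes the ubiquitin-like modifier ISG15, were left out by name. A further 12 genes did not reach 1 CPM (reads of the gene scaled to a common library total) in 3 libraries, which left 42 members of 54446 genes in the table. At this minimum, the third-highest CPM was 3.01 for Usp35 and 3.05 for Usp29 just inside, and 0.899 for Usp27x and 0.743 for Usp43 just outside. Of the 12 genes under the minimum, 4 had 0 counts in every library, and the testis-associated Usp26 was among them. The second table held 41 of the members. Usp10 was not analysed there.

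The study asked which transcription factors control proteasome genes in muscle that loses its nerve, and 2 sets of libraries were used. The first set had 3 libraries of denervated muscle from mice labelled PAX4 KO, 3 of denervated muscle from WT mice and 3 of innervated muscle from WT mice labelled as controls. The second set had 3 libraries labelled NRF1-PAX4 double KD, 3 labelled NRF1 KD and 2 from WT mice labelled con, all of denervated muscle. Denervation, the loss of the motor nerve that leads to muscle atrophy, had lasted 10 d in every denervated group. PAX4 is a paired box factor, and the labels give NRF1 as NRF1PAL, which is the palindrome-binding factor also called alpha-PAL. The sources used here do not give how the genes were deleted or knocked down, nor the muscle, strain, age or sex of the mice. Nothing in the labels says that the libraries of a group came from separate animals, and the spread behind each p-value may be technical only.

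A USP cleaves ubiquitin from a substrate through a catalytic domain built around a cysteine, and can so keep a protein from the proteasome, end a signal or return ubiquitin to the free pool. Members differ in their substrates and places in the cell, from histones to endosomes, the endoplasmic reticulum and mitochondria. In muscle the family is best known through Usp19, whose loss in mice lessens muscle wasting. The name rule also takes in Usp6nl, which encodes a GTPase-activating protein for Rab GTPases (RN-tre) and is no protease.

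Libraries of the first set held 21716216 to 42821396 counts and those of the second 23740769 to 30165765 recovered reads. Muscle identity was plain from the actin Acta1, at 20530 to 26180 CPM in denervated WT and 23250 to 28060 CPM in innervated WT libraries. The 9 first-set libraries held 0 counts of Pax4, which leaves the PAX4 KO label unchecked. Nrf1 mRNA stood at 499, 476 and 524 normalised counts in NRF1 KD libraries and 488 and 444 in WT con libraries, so the transcript was not lower where the label says knockdown. The libraries labelled double KD held 449.5, 427 and 454. Another transcript, Esr1, did part the labelled libraries from their controls. It had 492.5, 436.5 and 565.9 CPM in PAX4 KO and 20.1, 19.5 and 18.4 CPM in denervated WT libraries. In the second set it had 16060, 14110 and 15140 normalised counts in NRF1 KD libraries and 541 and 459 in WT con libraries. Double KD libraries had 15180, 14970 and 15840. Its part in the USP values was not tested. A pair of libraries of the first set stood apart. Innervated WT library 2 held Chrng, the fetal acetylcholine receptor subunit that muscle expresses again when denervated, at 15.95 CPM, against 0.197 and 0.105 CPM in innervated WT libraries 1 and 3. Denervated WT library 1 had 257 CPM of Gadd45a, a gene induced by denervation, against 657 and 589 CPM in denervated WT libraries 2 and 3. Values without both libraries together are given for each of the 15 members called with denervation.

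Levels of the members spanned a wide range in muscle. Per kb of exon, the scale on which transcripts of different length can be compared, the mean in innervated WT muscle ran from 36.8 CPM per kb for Usp13 to 0.0669 CPM per kb for Usp29, a ratio of 550.1. Usp13, a deubiquitinase that acts on Beclin 1 in autophagy, was followed by Usp2, tied to the circadian clock, at 28.7 ± 7.74 CPM per kb (SD, n = 3). Usp47, known for DNA polymerase beta in base excision repair, reached 24.2 ± 2.90, Usp19 23.6 ± 1.96 and Usp25, whose longest isoform is muscle-specific, 22.6 ± 2.42 CPM per kb. Usp47, Usp19 and Usp25 did not differ beyond their spread. These 5 transcripts took 37.4 to 39.3% of the family's summed level per kb in denervated WT libraries and 41.6 to 45.6% in innervated WT libraries. In denervated WT muscle Usp28 stood second, at 29.2 ± 4.78 CPM per kb, against sixth place at 13.1 ± 2.97 CPM per kb in innervated WT muscle. Its share of the family was 8.52 to 11.3% in denervated WT libraries and 3.40 to 5.93% in innervated WT libraries. The summed level of all 42 members was 2295, 2291 and 2190 CPM in denervated WT libraries and 2558, 2186 and 2667 CPM in innervated WT libraries, and these ranges overlapped.

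**Figure D1:**
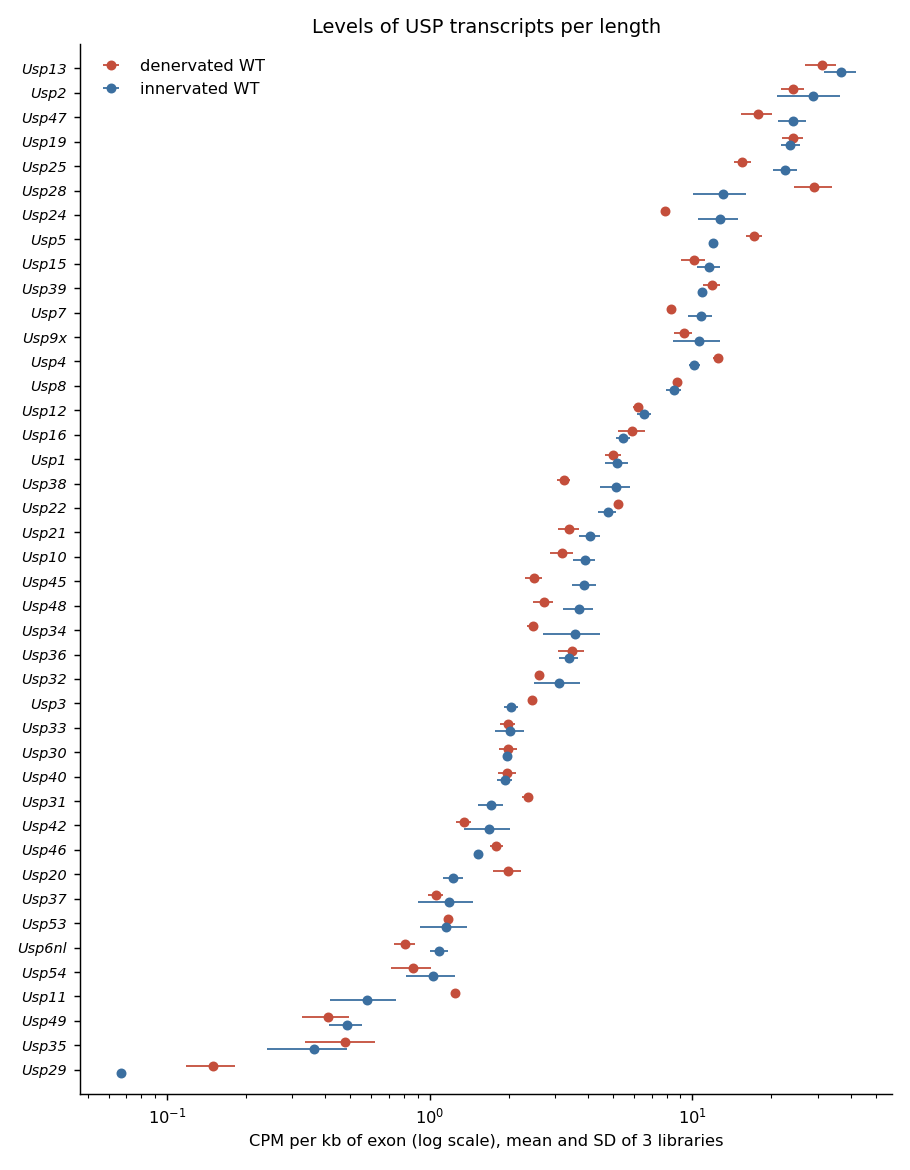
Levels of the 42 USP transcripts in CPM per kb of exon (log axis) in denervated and innervated WT muscle, ordered by the innervated mean. Points are means and bars SDs of 3 libraries. Usp28 moved to 29.2 CPM per kb in denervated muscle against 13.1 in innervated muscle, while Usp13 led the family in both.

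Denervation went with changes in both directions across the family. Among the 42 members, 6 rose and 9 fell in denervated WT against innervated WT muscle at a Benjamini-Hochberg adjusted p under 0.05 over all genes (edgeR quasi-likelihood test). That is 14.3% of members higher against 16.5% of all 16146 tested genes, and 21.4% lower against 15.8% of all tested genes, shares near the background in both directions. The median log2 fold change of the members was -0.06, against 0.02 over all tested genes, and their median absolute change was 0.26 against 0.38. Of the 42 fold changes 19 were positive and 23 negative. Of the 15, 9 passed under all 13 alternative settings (Usp11, Usp20, Usp28, Usp29 and Usp5 higher; Usp24, Usp25, Usp38 and Usp45 lower). The other 6 (Usp31, Usp34, Usp47, Usp48, Usp6nl and Usp7) each lost the call under 1 or more of them. The count of members that fell was 4 without denervated WT library 2, 4 without denervated WT library 3, 5 without innervated WT library 1 and 4 without innervated WT library 3.

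**Figure D2:**
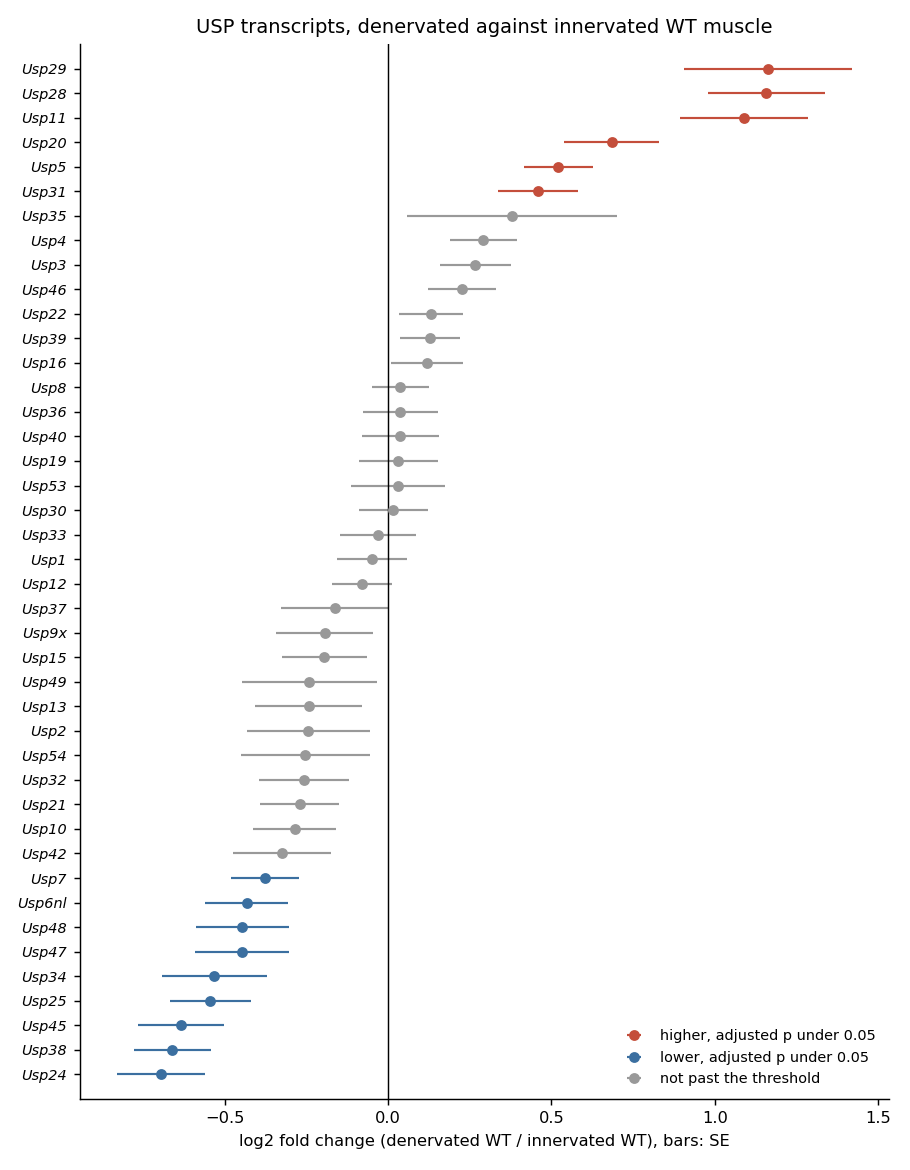
Log2 fold changes of the 42 USP transcripts in denervated WT against innervated WT muscle, with standard errors from the edgeR fit. Red points (6) rose and blue points (9) fell at an adjusted p under 0.05. Usp29, Usp28 and Usp11 lie near 1.1 and the strongest decreases near -0.7.

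Of the members that rose, Usp28 changed most among the abundant ones. Usp28 stabilises Myc and takes part in p53 signalling with 53BP1. Its level was 199, 168 and 143 CPM in denervated WT libraries, against 66.2, 96.1 and 66.1 CPM in innervated WT libraries. The groups did not overlap, and the fold was 2.23 (log2 1.16 ± 0.18 SE, adjusted p = 0.00122, edgeR). Innervated WT library 2, the one with denervation genes, was the highest innervated library. Usp11, which acts on the TGF-beta receptor and on BRCA2, had 5.83, 5.76 and 6.10 CPM in denervated WT libraries and 2.17, 3.62 and 2.44 CPM in innervated WT libraries. These groups were apart as well, with a log2 fold change of 1.09 ± 0.19 SE (adjusted p = 0.00247, edgeR). Usp29, a paternally expressed imprinted gene in mouse, was the lowest member, at 2.07, 3.16 and 2.93 CPM in denervated WT libraries and 1.18, 1.26 and 1.19 CPM in innervated WT libraries. Its log2 fold change of 1.16 ± 0.26 SE (adjusted p = 0.00696, edgeR) rests on 24 to 118 counts per library over the first set. It shares exon bases with an antisense gene, Zim3, and the counts cannot be assigned to a strand here.

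Smaller increases were seen for 3 further members. Usp5, or isopeptidase T, takes apart ubiquitin chains that are attached to no protein and so refills the free pool. It measured 72.9, 82.4 and 82.6 CPM in denervated WT libraries and 54.0, 54.5 and 57.2 CPM in innervated WT libraries, a fold of 1.44 (adjusted p = 0.00474, edgeR). Usp20, which acts on HIF1A and on the beta-2 adrenergic receptor in human cells, had 15.4, 18.7 and 19.5 CPM in denervated WT libraries. Innervated WT libraries had 10.99, 12.1 and 10.2 CPM of it, a fold of 1.61 (adjusted p = 0.00553, edgeR). Usp31 had 24.7, 25.1 and 23.1 CPM in denervated WT libraries and 15.9, 17.3 and 19.8 CPM in innervated WT libraries, a fold of 1.37 (adjusted p = 0.0171, edgeR), and lost its call without denervated WT library 2 or innervated WT library 1. For these 3 transcripts every denervated library lay above every innervated one. The groups did not overlap for 2617 of all 2661 genes called higher, so this too is common to called genes.

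Among the members that fell, Usp24 changed most. This large protease acts on the damage-recognition protein DDB2 in human cells. Its level was 95.9, 98.7 and 96.2 CPM in denervated WT libraries, against 159, 128 and 184 CPM in innervated WT libraries (log2 fold change -0.70 ± 0.14 SE, adjusted p = 0.00382, edgeR). The denervated libraries lay close together, and the innervated ones were spread, with library 2 the lowest. Usp38, a regulator of TBK1 in antiviral signalling, had 19.5, 18.9 and 17.3 CPM in denervated WT libraries and 30.2, 25.2 and 32.7 CPM in innervated WT libraries (-0.66 ± 0.12, adjusted p = 0.00233, edgeR). Usp45, which acts on the repair endonuclease subunit ERCC1, had 16.5, 15.9 and 14.3 CPM in denervated WT libraries and 25.6, 21.3 and 25.7 CPM in innervated WT libraries (-0.64 ± 0.13, adjusted p = 0.00509, edgeR). Usp25 had 83.2, 85.0 and 73.8 CPM in denervated WT libraries and 124, 103 and 125.5 CPM in innervated WT libraries (-0.54 ± 0.12, adjusted p = 0.00838, edgeR). The groups did not overlap for any of the 4. This held for 2496 of all 2549 genes called lower, so it sets these members apart from no other called gene.

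The calls of the remaining 5 members that fell were less steady. Usp34, which acts on axin in Wnt signalling in human cells, had 45.4, 47.7 and 43.6 CPM in denervated WT libraries and 73.3, 47.6 and 76.9 CPM in innervated WT libraries. It was the member among the 15 whose groups overlapped, because innervated WT library 2 lay inside the denervated range (log2 fold change -0.53 ± 0.16 SE, adjusted p = 0.0285, edgeR). Usp47 measured 279.8, 236 and 215 CPM in denervated WT libraries and 368, 289 and 339 CPM in innervated WT libraries (-0.45 ± 0.14, adjusted p = 0.0364, edgeR). Usp48, which removes the ubiquitin that BRCA1 places on histone H2A, had 29.1, 24.8 and 25.0 CPM in denervated WT libraries and 37.1, 30.8 and 39.6 CPM in innervated WT libraries (-0.45 ± 0.14, adjusted p = 0.0365, edgeR). Usp7, the protease of Mdm2 and p53, had 65.8, 64.5 and 62.9 CPM in denervated WT libraries and 88.1, 73.3 and 89.3 CPM in innervated WT libraries (-0.38 ± 0.10, adjusted p = 0.0194, edgeR). Usp6nl, the Rab regulator, had 7.15, 6.27 and 6.07 CPM in denervated WT libraries and 8.18, 8.61 and 9.52 CPM in innervated WT libraries (-0.43 ± 0.13, adjusted p = 0.0262, edgeR). Without denervated WT library 2, none of these 5 passed the test. They were also lost without denervated WT library 3 or innervated WT library 3, and all but Usp6nl were lost without innervated WT library 1. Usp34 was lost without denervated WT library 1 as well. Settings that leave out none of these libraries removed calls too. Without a filter on low counts Usp47, Usp6nl and Usp7 were lost, and with only the groups compared Usp34 and Usp47 were lost.

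Innervated WT library 2 lay nearest to the denervated side among the innervated libraries for 8 of the 9 members that fell (88.9%), all but Usp6nl. Over all genes that fell this held for 1621 of 2549 (63.6%). For the members that rose it was 4 of 6 (66.7%), against 1700 of 2661 genes (63.9%). Without this library 18 members passed the test, all 15 and in addition Usp32, Usp37 and Usp9x, each of them lower. Without it and denervated WT library 1 together 16 passed, with Usp31 lost and Usp32 and Usp37 gained. The log2 fold changes were then 1.24 for Usp28, 1.36 for Usp11, 1.36 for Usp29, 0.86 for Usp20, 0.57 for Usp5 and 0.43 for Usp31. On the lower side they were -0.81 for Usp24, -0.79 for Usp38, -0.76 for Usp45, -0.65 for Usp25 and -0.71 for Usp34. Usp47 stood at -0.64, Usp48 at -0.62, Usp6nl at -0.52 and Usp7 at -0.47. All 15 kept their direction.

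**Figure D3:**
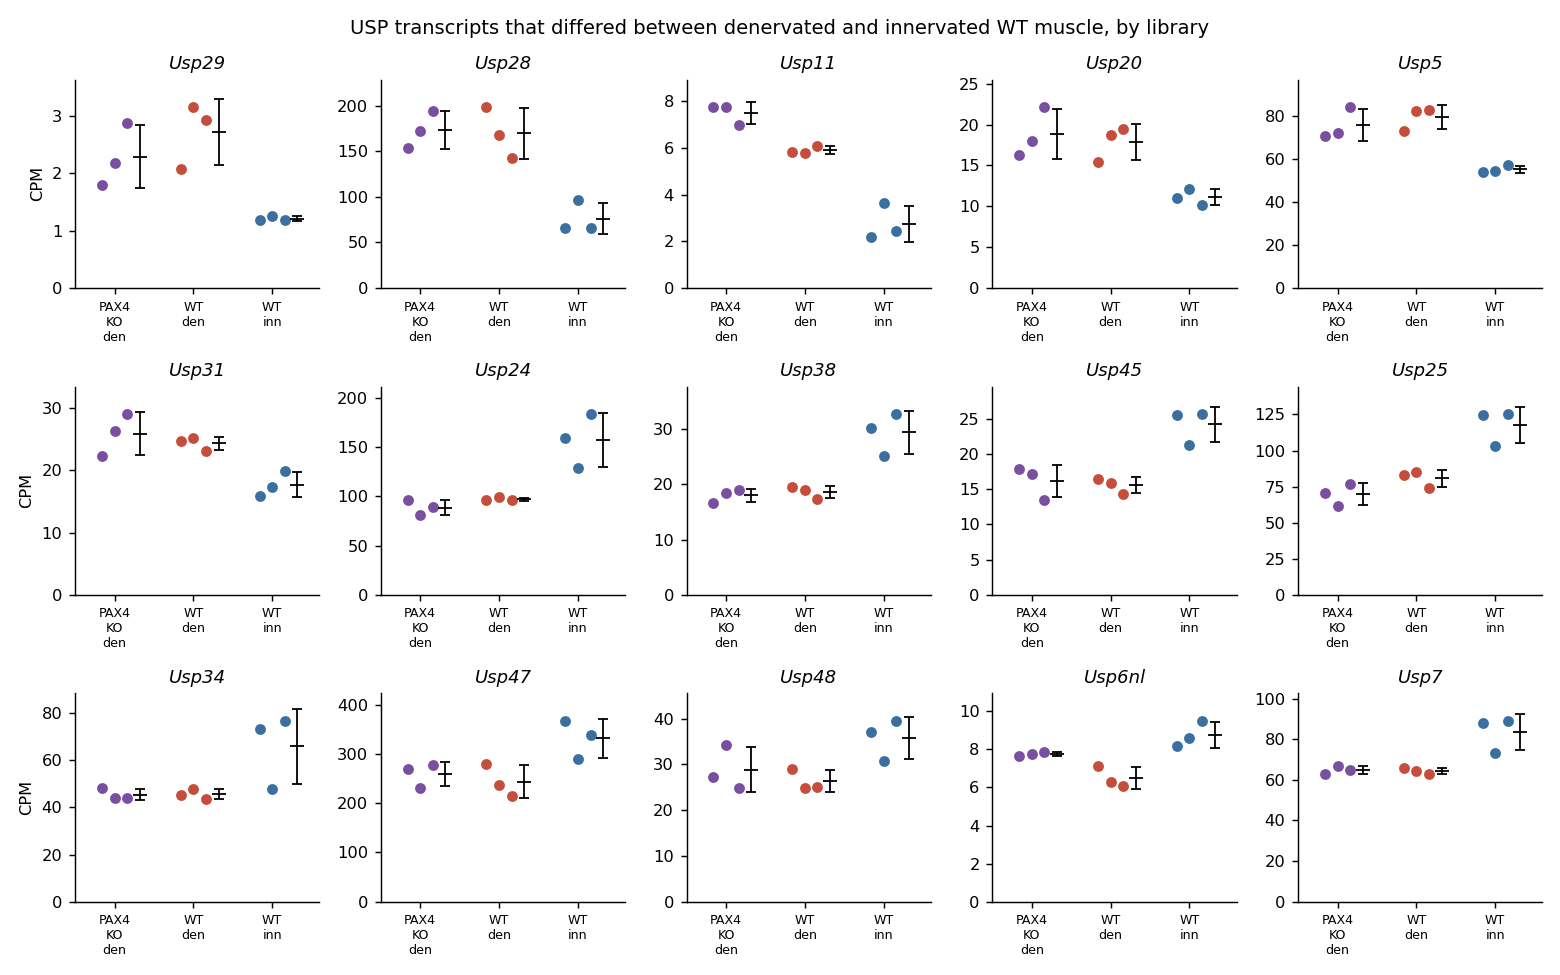
CPM of the 15 members called in denervated against innervated WT muscle, in each library of denervated PAX4 KO, denervated WT and innervated WT muscle. Dots are libraries 1 to 3 from left to right, and bars are the mean and SD. The middle innervated dot, library 2, lies toward the denervated level in most panels; Usp34 is the panel where denervated and innervated WT dots overlap.

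Other cell types moved with denervation too. Macrophage markers were called higher for 8 of 10 genes, with summed levels of 414 to 845 CPM in denervated WT libraries and 112 to 349.5 CPM in innervated WT libraries. Endothelial markers fell for 6 of 7 (426 to 585 CPM in denervated WT and 811 to 911 CPM in innervated WT libraries). Muscle fibre markers summed to 55470 to 65770 CPM in denervated WT and 82430 to 102800 CPM in innervated WT libraries, with 2 higher and 4 lower of 8. Smooth muscle and pericyte markers fell for 4 of 5 (537 to 653 CPM in denervated WT and 915 to 1199 CPM in innervated WT libraries). Adipocyte markers fell for 2 of 4 (273 to 331 CPM in denervated WT and 439.9 to 455 CPM in innervated WT libraries). Neutrophil markers summed to 22.2 to 131.5 CPM in denervated WT and 3.03 to 5.10 CPM in innervated WT libraries, with 1 of 3 measured genes higher. T cell markers summed to 2.85 to 6.28 CPM in denervated WT and 9.83 to 16.9 CPM in innervated WT libraries, with 1 of 3 lower, although the median log2 fold change of the 3 was 0.90. Fibroblast sums overlapped (1472 to 1913 CPM in denervated WT and 1539 to 2064 CPM in innervated WT libraries, 1 of 6 lower). Satellite cell sums overlapped too, at 23.0 to 35.9 CPM in denervated WT and 21.2 to 28.0 CPM in innervated WT libraries, with 1 of 4 higher. In bulk muscle, fewer cells of a type and less RNA per cell cannot be told apart, and the part of these markers in the changes of USP transcripts was not tested.

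The members were also read by role, in lists too short to be set against the background of 16.5% of genes higher and 15.8% lower. Of the 6 tied to p53, Mdm2 and DNA repair, Usp28 rose and Usp47, Usp48 and Usp7 fell, while Usp1, the protease of FANCD2 and PCNA, and Usp10 were not called. All 5 measured chromatin members (Usp3, Usp16, Usp21, Usp22 and Usp49) stayed outside the threshold, and 3 on that list (Usp27x, Usp44 and Usp51) were under the minimum. The histone H2B protease of the SAGA complex, Usp22, had 25.3, 26.5 and 24.6 CPM in denervated WT libraries and 22.5, 21.9 and 25.3 CPM in innervated WT libraries (0.13 ± 0.10, adjusted p = 0.333, edgeR), with a touch of overlap between the groups. Of the 5 in receptor, endosome and TGF-beta signalling 1 rose, Usp11. Usp4, which acts on the TGF-beta receptor, had 103, 109 and 111 CPM in denervated WT libraries and 92.9, 86.1 and 84.9 CPM in innervated WT libraries. Its groups did not overlap, and it missed the threshold narrowly (0.29 ± 0.10, adjusted p = 0.0501, edgeR). Over the alternatives its adjusted p ran between 0.0217 with DESeq2 and 0.154 without innervated WT library 3.

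The other receptor and endosome members overlapped between the groups. Usp15, a regulator of R-SMADs, had 149, 181 and 173 CPM in denervated WT libraries and 209.5, 171 and 196 CPM in innervated WT libraries (log2 fold change -0.20 ± 0.13 SE, adjusted p = 0.277, edgeR). Usp9x, which acts on endocytic and junction proteins, had 135, 152 and 131 CPM in denervated WT libraries and 176, 122 and 180.3 CPM in innervated WT libraries (-0.19 ± 0.15, adjusted p = 0.348, edgeR). Usp8, the ESCRT-bound protease that decides whether a receptor is recycled, had 37.6, 35.5 and 36.5 CPM in denervated WT libraries and 34.3, 34.1 and 38.3 CPM in innervated WT libraries (0.04 ± 0.09, adjusted p = 0.774, edgeR). Its sign turned when innervated WT library 2 and denervated WT library 1 were left out together (-0.01).

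On the endoplasmic reticulum, Golgi and mitochondria list 1 of 5 members rose, Usp20. Usp19, anchored in the endoplasmic reticulum, had 152.5, 176 and 182 CPM in denervated WT libraries and 161, 156 and 182 CPM in innervated WT libraries. The groups lay over each other, and the log2 fold change was 0.03 ± 0.12 SE (adjusted p = 0.866, edgeR), with the sign turned without denervated WT library 3 or innervated WT library 2. Usp30, which opposes Parkin on the outer mitochondrial membrane, had 11.7, 11.4 and 13.2 CPM in denervated WT libraries and 12.4, 11.5 and 11.96 CPM in innervated WT libraries (0.02 ± 0.11, adjusted p = 0.923, edgeR). This sign too depended on single libraries. Of the 5 members with a literature in muscle (Usp1, Usp2, Usp13, Usp19 and Usp25), Usp25 fell and the other 4 were not called. Usp2 had 120.2, 104 and 126.5 CPM in denervated WT libraries and 137, 102 and 177 CPM in innervated WT libraries (-0.24 ± 0.19, adjusted p = 0.352, edgeR). Usp13 had 267, 239 and 203 CPM in denervated WT libraries and 291, 238 and 311 CPM in innervated WT libraries (-0.24 ± 0.16, adjusted p = 0.281, edgeR). Both transcripts varied more between libraries of a group than between the groups.

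Related members were set side by side. The log2 ratio of the paralogs in each library was compared for 14 pairs, and with 3 libraries against 3 the smallest p that the two-sided exact permutation test allows is 0.1, so that no pair could pass 0.05 and none did. The ratios of 11 pairs did not overlap between the groups, with no share for other gene pairs to read this against, and the values are given as a description. The widest shift was in Usp25 over Usp28. This log2 ratio lay between -1.26 and -0.96 in denervated WT libraries and between 0.10 and 0.92 in innervated WT libraries. That is a difference of -1.71 (p = 0.1, exact permutation; 0.127 adjusted over the 14 pairs): Usp25 had the lower CPM of the pair in every denervated library and the higher in every innervated one. Usp11 over Usp15 shifted by 1.33 and Usp4 over Usp11 fell by 0.85, with no overlap between the groups for either. Usp5 over Usp13 shifted by 0.76, with log2 ratios of -1.87 to -1.30 in denervated WT and -2.44 to -2.12 in innervated WT libraries.

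Usp16 over Usp45 shifted by 0.75 and Usp20 over Usp33 by 0.71, both without overlap. Usp35 over Usp38 differed by 1.05 but overlapped, since Usp35 lay at 1.53 to 3.32 CPM and varied widely. Among the large proteases, Usp24 over Usp34 (-0.18) also overlapped. Usp53 over Usp54 (0.30) overlapped as well. Usp31 had no partner for a ratio, as Usp43 was under the minimum.

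**Figure D4:**
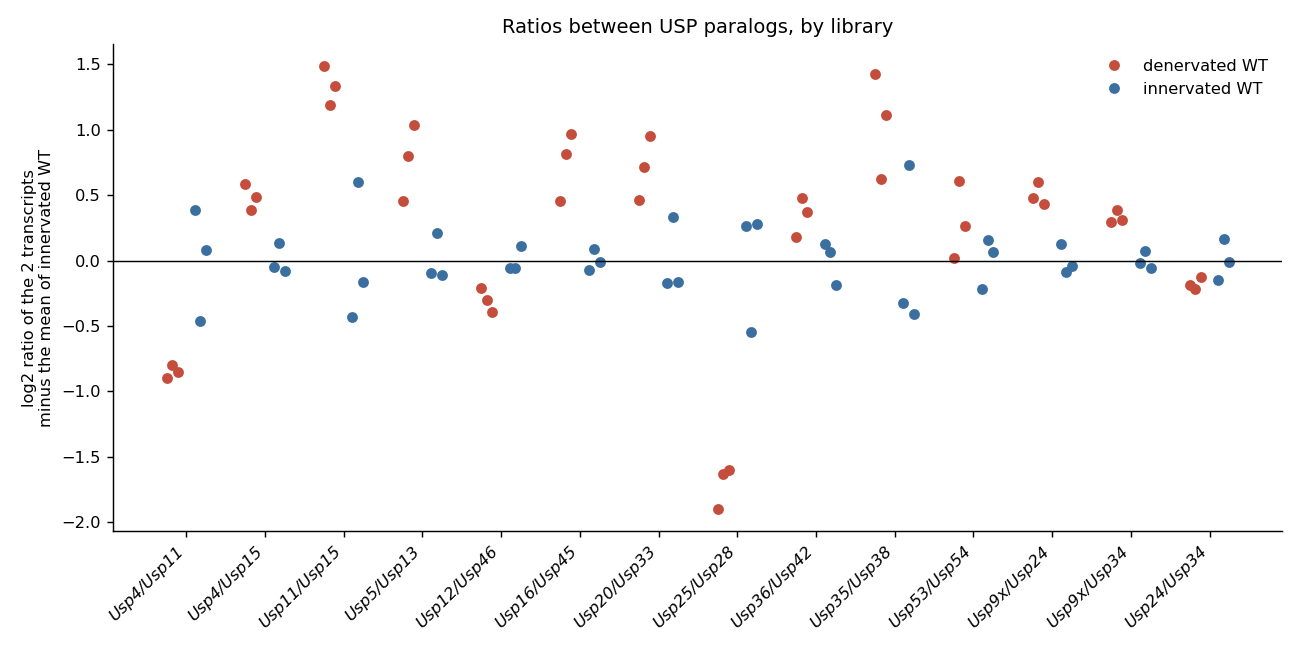
Log2 ratios of the CPM of paired USP paralogs in each denervated and innervated WT library, drawn relative to the mean of the innervated libraries (0). Dots are single libraries. Usp25/Usp28 lies lowest, with all 3 denervated libraries at least 1.6 under the innervated mean.

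The other deubiquitinase families and known USP partners gave a wider frame. Of 46 measured genes on this list, 13 rose (28.3%) and 6 fell (13.0%) in denervated WT muscle, beside 16.5% and 15.8% of all tested genes. The UCH family rose for 3 of 4 genes, led by Uchl5 of the proteasome (log2 fold change 0.58, adjusted p = 0.00233, edgeR) and Uchl1 (2.54, adjusted p = 0.00514). In the OTU family 2 rose, Otud1 (1.80) and Otulin (0.78), which cleaves linear ubiquitin chains, and 3 fell, with Otub2 (-1.65) and Otud4 (-0.48) first by p. Cyld, a USP-fold enzyme of linear and K63 chains, rose by 0.74, the JAMM-fold Eif3h rose by 0.44, and Mindy2 fell by 0.59. Among partners, 6 of 13 rose, with Stam2 (a fold of 2.16), which binds Usp8 on endosomes, and Eny2 (a fold of 1.65), part of the SAGA deubiquitinating module, first by p. The partners that fell were G3bp2 (-0.39), of the Usp10-binding G3BP proteins, and Atxn7 (-0.45), also of that module.

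For denervated and innervated WT muscle, the authors' deposited table gave 16 of 41 listed members an adjusted p under 0.05, against 26.4% of all genes with one. Of the 15 members called here, 13 were among them, and Usp34 and Usp6nl were not. The authors' deposited table had in addition Usp4, Usp37 and Usp46.

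Some members share exon bases with their neighbours, and whether counting kept them apart cannot be told here. Exons of 16 members overlap exons of another gene in the annotation, 15 of them on the opposite strand, and 9 overlap a protein-coding gene. Usp34 overlaps Ahsa2, which rose (log2 fold change 0.48, adjusted p = 0.00401, edgeR) while Usp34 fell. Usp16 overlaps the chaperonin gene Cct8, which rose by 0.38 (adjusted p = 0.0135, edgeR). Usp45 overlaps Tstd3 (-0.25, adjusted p = 0.259, edgeR).

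No member passed the test between denervated muscle labelled PAX4 KO and denervated WT muscle, which does not show that the levels were alike. Of 42 members 0 were higher and 0 lower (edgeR), beside 0.0186% and 0% of all tested genes. DESeq2 also called 0 members, beside 140 genes higher and 73 lower over all genes. limma-voom called 0 members, beside 5 genes higher and 0 lower. The authors' deposited table had 0 of 41 listed members under an adjusted p of 0.05, against 1.05% of all genes with one. At an unadjusted p under 0.05 there was 1 member, against 12.9% of all genes. Log2 fold changes ran from -0.30 to 0.34. The member with the smallest p was Usp15, at 151, 122.5 and 135 CPM in PAX4 KO libraries and 149, 181 and 173 CPM in denervated WT libraries (-0.30 ± 0.13 SE, adjusted p = 0.374, edgeR). Its groups overlapped through 1 library. Usp11 had 7.75, 7.75 and 6.97 CPM in PAX4 KO libraries, above all denervated WT libraries at 5.83, 5.76 and 6.10 CPM (0.34 ± 0.19, adjusted p = 0.449, edgeR).

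Usp6nl had 7.64, 7.75 and 7.85 CPM in PAX4 KO libraries, against 7.15, 6.27 and 6.07 CPM in denervated WT libraries (0.25 ± 0.13, adjusted p = 0.425, edgeR), again without overlap. For Usp11 and Usp6nl there is no share of all genes without overlap to read this against. Next by p were Usp42 (0.25), Usp16 (-0.24) and Usp19 (-0.21). Usp28 lay at 153, 173 and 194 CPM in PAX4 KO libraries, within the denervated WT range of 143 to 199 CPM. Macrophage markers summed to 754 to 1316 CPM in PAX4 KO and 414 to 845 CPM in denervated WT libraries, with 0 of 10 called. These sums overlapped, and the median log2 fold change was 0.88. Fibroblast markers summed to 2300 to 5861 CPM in PAX4 KO and 1472 to 1913 CPM in denervated WT libraries, which did not overlap (median log2 fold change 0.61, with 0 of 6 called). The sums of the neutrophil, T cell, endothelial, smooth muscle and pericyte, adipocyte, satellite cell and muscle fibre lists overlapped between these groups, with 0 of their genes called. The part of these cells in the USP values was not tested.

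In the second set a pair of USP transcripts was called lower in NRF1 KD muscle, a share near the background. Compared with WT con, 0 of 41 members were higher and 2 lower (limma-trend, adjusted p under 0.05). That is 4.88% lower, beside 3.72% of 15624 tested genes, and 7.58% of genes were higher. The members' median log2 fold change was -0.11, against 0.00 over all genes, and 29 of 41 were negative. At an unadjusted p under 0.05 there were 2 higher and 7 lower members (22.0%), against 27.6% of all genes. The pair was Usp39 and Usp16. Neither kept its call under all 12 alternatives: 0 were left without NRF1 KD library 1, without NRF1 KD library 3, without WT con library 2 or with a replicate block, and 1 (Usp39) without NRF1 KD library 2 or WT con library 3.

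Usp39 is a splicing factor of the U4/U6.U5 tri-snRNP whose protease domain lacks catalytic residues. It had 828, 945 and 827 normalised counts in NRF1 KD libraries and 1233 and 1121 in WT con libraries. The groups did not overlap, and the log2 fold change was -0.44 ± 0.11 SE (adjusted p = 0.0251, limma). Usp16, a histone H2A deubiquitinase, had 1755, 1829 and 1708 normalised counts in NRF1 KD libraries and 2342 and 2379 in WT con libraries (-0.42 ± 0.10, adjusted p = 0.0263, limma). Here too each knockdown library lay below each control. Cct8, which shares exon bases with Usp16, stood at -0.21 (adjusted p = 0.328, limma).

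Just outside the threshold was Usp19, at 4054, 4279 and 3873 normalised counts in NRF1 KD libraries and 4877 and 5116 in WT con libraries (-0.30 ± 0.09 SE, adjusted p = 0.0514, limma). It passed when genes under a mean of 50 normalised counts were left out of the test. On the other side lay Usp35, at 109.5, 106 and 135 normalised counts in NRF1 KD libraries and 76.2 and 66.9 in WT con libraries (0.70 ± 0.22, adjusted p = 0.0676, limma). For both transcripts the groups did not overlap, with no share over all genes to read this against. Usp28 and Usp25, which parted with denervation, had log2 fold changes of -0.04 and -0.35 (adjusted p = 0.892 and 0.109, limma). The authors' deposited table of NRF1 KD results had 3 of 41 members under an adjusted p of 0.05, against 15.1% of all genes. These were Usp16, Usp39 and Usp19, all lower, with log2 fold changes of -0.42, -0.44 and -0.30 in the authors' deposited table.

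**Figure D5:**
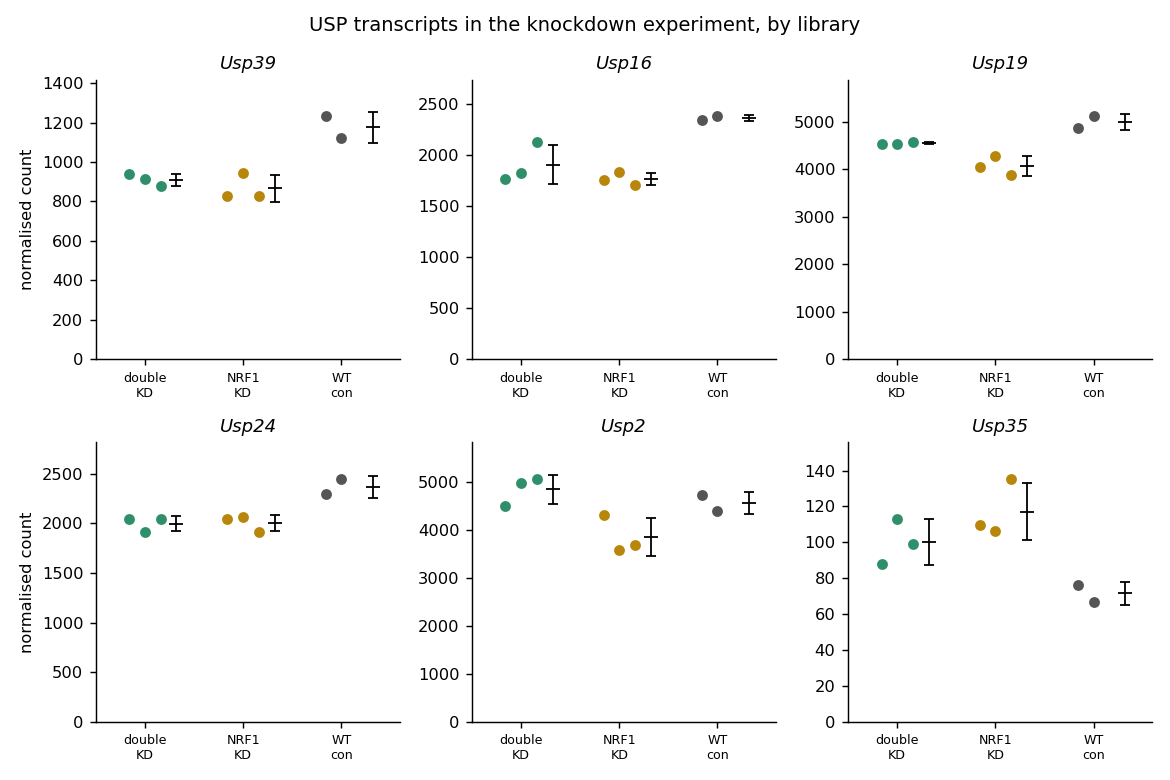
Normalised counts of 6 USP transcripts in each library of double KD, NRF1 KD and WT con muscle. Dots are libraries and bars the mean and SD (n = 3, 3 and 2). Usp39, Usp16, Usp19 and Usp24 lie lower in both knockdown groups than in WT con, Usp35 lies higher, and Usp2 lies lower in NRF1 KD than in both other groups. Of these, Usp39 and Usp16 in NRF1 KD passed the test.

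Double KD muscle had no member past the threshold against WT con. Of 41 members 0 were higher and 0 lower (limma), beside 2.39% and 1.70% of all genes, and edgeR on the recovered reads also called 0. At an unadjusted p under 0.05 there were 1 higher and 3 lower (9.76%), against 21.4% of all genes. This comparison and that of NRF1 KD share the WT con libraries. Usp39 had 940, 915 and 878 normalised counts in double KD libraries and 1233 and 1121 in WT con libraries (-0.37 ± 0.11 SE, adjusted p = 0.0788, limma). Usp16 had 1761, 1825 and 2123 in double KD libraries and 2342 and 2379 in WT con libraries (-0.32 ± 0.10, adjusted p = 0.107, limma). Usp24 had 2040, 1910 and 2045 in double KD libraries and 2292 and 2449 in WT con libraries (-0.25 ± 0.09, adjusted p = 0.147, limma). In each of the 3 the groups did not overlap, but they were picked by smallest p. No share of all genes without overlap is given to set beside this. The smallest p on the higher side belonged to Usp48 (0.25, adjusted p = 0.22), Usp35 (0.47, adjusted p = 0.247) and Usp11 (0.41, adjusted p = 0.259).

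Between double KD and NRF1 KD muscle, 0 of 41 members passed the test in either direction (limma, and edgeR on the recovered reads), beside 0.0768% of genes higher and 0.0576% lower, and 1 had an unadjusted p under 0.05. That was Usp2, at 4496, 4980 and 5064 normalised counts in double KD libraries and 4306, 3580 and 3676 in NRF1 KD libraries, without overlap (0.33 ± 0.10 SE, adjusted p = 0.215, limma). Next by p were Usp19 (0.16, adjusted p = 0.47) and Usp33 (0.18, adjusted p = 0.489) on the higher side and Usp32 (-0.12), Usp35 (-0.22) and Usp29 (-0.43) on the lower. Summed over the 41 members, the level was 61553, 65488 and 73809 normalised counts in double KD libraries, 64592, 63253 and 58864 in NRF1 KD libraries and 69714 and 67573 in WT con libraries. NRF1 KD libraries lay below both WT con libraries in this sum, and double KD libraries reached past them.

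Among the other deubiquitinases, Otud1 (1.03), Tnfaip3 (0.99), an editor of NF-kB signals also called A20, and Stambpl1 (1.25) rose and Mindy1 (-0.49) fell in NRF1 KD against WT con muscle. In double KD muscle Otud1 (1.17), Otulin (0.56) and Stambpl1 (1.21) rose and Mindy1 (-0.46) fell (log2 fold changes, limma). In each comparison that is 3 higher (6.52%) and 1 lower (2.17%) of 46 measured genes on the list of other deubiquitinases and partners. Of all genes, 7.58% were higher and 3.72% lower in NRF1 KD muscle, and 2.39% and 1.70% in double KD muscle. Macrophage markers moved with the NRF1 KD label. All 10 were called higher in NRF1 KD, with sums of 17730 to 35950 normalised counts against 7694 to 10150 in WT con libraries. In double KD libraries 1 of 10 was called, with sums of 13820 to 21880. Fibroblast markers were called higher for 3 of 6 in NRF1 KD and 2 of 6 in double KD muscle, with sums of 34530 to 73640 normalised counts in double KD, 42880 to 66950 in NRF1 KD and 19000 to 36880 in WT con libraries. T cell markers were called higher for 2 of 3 in NRF1 KD and 0 of 3 in double KD muscle, with sums of 15.2 to 64.8 in double KD, 64.3 to 73.3 in NRF1 KD and 7.62 to 17.5 in WT con libraries. Neutrophil markers had 2 higher and 1 lower of 3 in NRF1 KD and 1 lower in double KD muscle, with sums of 725 to 1632 in double KD, 1050 to 1351 in NRF1 KD and 2038 to 2896 in WT con libraries. Of the smooth muscle and pericyte markers 1 of 5 was higher in NRF1 KD and 0 in double KD muscle, and 0 endothelial, adipocyte or satellite cell markers were called in either. Muscle fibre markers summed to 1950000 to 2559000 normalised counts in NRF1 KD and 2237000 to 2433000 in WT con libraries, with 0 of 8 called. The part of these cells in the USP values was not tested.

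Promoter sequence was looked at for NRF1, which the study names, and for factors that act in denervated muscle. No PAX4 motif was searched. RefSeq windows (GRCm38.p6) of 300 bases, from 250 before to 50 after a transcript start, matched 34 of the 42 members in 35 windows. The core of the NRF1 (alpha-PAL) site, GCGCATGC on either strand, was in 2 of 35 windows (5.71%), those of Usp37 and Usp48, against 891 of 32851 windows of all genes (2.71%). The FoxO core GTAAACA on either strand was in 0 of 35, against 3.65% of all windows. The palindromic E-box CAGCTG, bound by myogenic factors, was in 6 of 35 (17.1%), against 16.3%, and its members were Usp12, Usp13, Usp19, Usp35, Usp46 and Usp6nl. Windows of the 5 matched members that rose with denervation held none of the 3, and of 10 windows of members that fell, 1 held the NRF1 core (Usp48) and 1 the E-box (Usp6nl). The window of the 1 matched member that fell in NRF1 KD muscle held none either. The stretches below show the NRF1 cores, and for comparison the E-boxes of Usp19 and Usp13, which lead the family in muscle or its literature, with the motif in capitals, 5′ to 3′ on the strand of the gene.
Usp48, chr4:137594096-137594125 (+): cctgggagcacGCATGCGCagactgcggca
Usp37, chr1:74506041-74506070 (-): ggacacgaattGCGCATGCtcaagcggttg
Usp19, chr9:108490573-108490602 (+): atacacgccatCAGCTGtaggctaccagca
Usp13, chr3:32817522-32817551 (+): gcctgacgctgCAGCTGggccggcgactcg
Usp48 carries the core read from the other strand, and had 717, 774 and 799 normalised counts in NRF1 KD libraries and 587 and 656 in WT con libraries (0.30, adjusted p = 0.113, limma). The groups were apart, with the knockdown libraries higher. Both NRF1 cores lie inside the annotated gene and not before its outermost start. In GENCODE M21 Usp48 (+) begins at chr4:137593755 and Usp37 (-) at chr1:74544284. Their windows precede RefSeq starts that lie within the gene. A match is a description of these letters in this window and shows no binding.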

How the data were processed

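RNA came from skeletal muscle, taken with TRIzol, and libraries were made with a SMARTER mRNA-Seq kit, per the labels' protocols. The submitters' processing notes name the builds GRCm38 and mm10. Aligner, counter, annotation and strandedness: not given in the sources used here. The first set was deposited as raw counts for each gene. The second set was deposited as log2 values, whose form is that of DESeq2's variance-stabilised scale, beside a mean signal column (counts divided by size factors) and p-values of their own tests. A further deposited table held the authors' log2 fold changes and p-values.

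The log2 values were inverted to normalised counts with the smallest value of the table, 6.84, as the floor. Means differed from the deposited signal by at most 3.34e-07%, and 100% of the recovered reads were whole within 0.05. Raw counts were tested with edgeR 4.0.16 in R 4.3.3 (quasi-likelihood, TMM scaling, filterByExpr, 9 libraries in 1 fit), which tested 16146 genes. For the second set limma 3.58.1 (limma-trend) was run on log2(value + 1), 8 libraries in 1 fit, so fold changes there include this pseudocount. Adjusted p is Benjamini-Hochberg over all genes, called under 0.05. Where the groups of a member are said not to overlap, this describes its values, and no share over all tested genes is given beside it. For denervation the share among called genes is given. CPM used TMM-scaled library sizes, except for the member minimum and the values given beside it, which used raw library totals. Exon lengths and overlaps came from GENCODE M21 on GRCm38, whose coordinates equal the file's for all 42 members. Both fits were tested on simulated counts with known changes. Alternatives were DESeq2 1.42.0, limma-voom, other filters, pseudocounts and size factors, edgeR on recovered reads, only the groups compared, a replicate block and each library left out. limma-voom and the joint omission of a pair of libraries in the first set were chosen after seeing the data. Paralog ratios used exact permutation tests (scipy 1.17.1).

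Columns of the first set carry numbers that the labels lack, so they were tied to groups, and libraries are numbered within a group in ascending order of these. The labels list 6 samples not analysed here: WT con library 1, the 2 labelled WT Innervated and the 3 at 14 d. Within groups, libraries differed by more than sampling noise (chi-square per degree of freedom 21.8 to 84.4 over 16 pairs), and none was counted as a duplicate.

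The members and lists were chosen with earlier results of these data known. Members named with values were up to 8 called per direction by size of change, a list of 13 known members in the denervation comparison, and, where none was called, up to 3 per direction by smallest p. Of the pathway genes, up to 2 called per family and direction were named. Usp19, Usp35, Usp25, Usp28 and Usp48 in NRF1 KD muscle and the neighbours of overlapping members were chosen after their values were seen. So were Esr1 and the genes that mark libraries standing apart. The result of 1 marker list of another cell type is not reported here.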

Additional observations from a re-analysis of the deposited data

How the results depend on the processing

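Counts of USP genes higher in denervated WT against innervated WT muscle stayed within 1.5 times under all 13 alternatives (5 to 7). Of the counts of members lower in this comparison 9 of 13 did, and the range over single libraries left out was 4 to 12. With a replicate block 9 were lower and all 15 calls were shared. The block used column numbers that denervated and innervated WT libraries share. Same-numbered libraries had correlated deviations of 0.203, 0.049 and 0.318, and each correlated best with its own number, a hint from the data and not the design. Single genes near 0 turned sign. With single libraries left out, the log2 fold change of Usp19 ran between -0.0198 (without denervated WT replicate 3) and 0.107 and that of Usp30 between -0.0502 (the same omission) and 0.0527. Without innervated WT replicate 2 they were -0.0106 and -0.00866. Usp8 was -0.00831 without innervated WT library 2 and denervated WT library 1 together.

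Members lower in NRF1 KD against WT con numbered 0 with a replicate block and 0 to 1 with single libraries left out. Same-numbered libraries of these groups correlated at 0.029 and 0.141. With 2 WT con libraries the deviations from their mean mirror each other, so these correlations cannot show whether same-numbered libraries are paired. Leaving out a WT con library leaves 1, which is then assumed to vary like the other groups. In the PAX4 KO and both double KD comparisons the count was 0 under every alternative run (12, 12 and 13). No paired analysis was possible because column numbers are not shared for PAX4 KO against WT libraries. Of the values of named members over the alternatives, 512 kept direction and side, 38 lost the call, 3 gained it and 5 reversed. The 512 include members that were not called in the main test. The 38 losses all fell on called members. These were Usp31, Usp34, Usp47, Usp48, Usp6nl and Usp7 with denervation, and Usp16 and Usp39 in NRF1 KD muscle. In the first set the smallest members limit precision, with 24 counts of Usp29 in 1 library. With 2 or 3 libraries a group, small changes were not detectable.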
